A study of Rattus norvegicus with 9 samples.

Results

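Fap, Sparc, Postn, Lum, Dcn, Fbn1 and Mfap5 encode a protease, 2 matrix-binding regulators, 2 proteoglycans and 2 microfibril proteins of connective tissue. Every probe set whose annotation gave 1 of these symbols, and no other, was taken. This found 9 probe sets for the 7 genes, with 2 each for Sparc and Fbn1, among 31042 probe sets and 14217 genes with a single symbol. They were measured in 9 samples of tongue tissue from male Sprague-Dawley rats, 1 Affymetrix rat expression array per sample, in 3 groups of 3 arrays. The 4NQO+IL-1Ra rats drank 0.002% 4NQO (4-nitroquinoline oxide, a carcinogen that gives tongue lesions) and, by the study's methods, were injected every week under the tongue mucosa with recombinant IL-1 receptor antagonist from week 14 to week 22. The 4NQO rats drank the same carcinogen and received the saline diluent by the same injections. The normal rats drank distilled water and were not described as injected, so carcinogen and injection cannot be told apart in any comparison with them. By the labels, killing followed the appearance of lesions, at any time in weeks 14 to 22, whereas the methods place it at the end of week 22. How far the lesion of each tongue had advanced is not stated in the sources used here. The study speaks of 9 tongue tissues picked at random, 3 a group, and the sample titles differ, but neither states that every array is a different rat. The p-values measure the spread between these arrays, which may be technical in part.

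These genes are known from fibroblasts, which lay down and remodel the collagen-rich matrix under the epithelium. Decorin and lumican, the products of Dcn and Lum, are small leucine-rich proteoglycans that bind collagen fibrils and regulate their assembly. Fibrillin-1, from Fbn1, forms the backbone of the extracellular microfibrils that carry elastin and hold latent TGF-beta, and Mfap5 (MAGP-2) is a small glycoprotein bound to them. Sparc (osteonectin) and periostin, from Postn, are secreted proteins that bind collagen and influence cells rather than serve mainly as structure. Fap is a serine protease on the surface of activated fibroblasts that cleaves after proline and can degrade gelatin. In carcinomas, many of these products are known from the stroma around the epithelial nests.

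By RefSeq on assembly GRCr8, Dcn (chr7:34167973-34208004) and Lum (chr7:34245323-34252510) are next to each other, 37318 bases apart. Kera and Epyc, 2 other proteoglycan genes, follow Lum and had no probe set with a single symbol. Fap (chr3:67547398-67616271) and Fbn1 (chr3:133007693-133204277) are far apart on 1 chromosome. Sparc (chr10:40017065-40038816), Postn (chr2:140677774-140709304) and Mfap5 (chr4:157399919-157422448) are on others. RefSeq promoter windows, from 250 bases before to 50 bases after a transcript start, were found for 6 of the 7 genes, all but Dcn. Those of Postn, Lum and Fbn1 lie wholly inside the gene spans given here, so their transcript starts are not the outermost annotated ones. Each was searched on both strands for the TATA box letters TATAAA and the CCAAT box letters CCAAT. The windows below are shown because they hold the TATAAA of Postn and the CCAAT matches of Lum and Mfap5, in capitals and on the minus strand read as ATTGG, and, for contrast, the window of Fbn1, with neither.
Postn (chr2:140677811-140678110, plus strand): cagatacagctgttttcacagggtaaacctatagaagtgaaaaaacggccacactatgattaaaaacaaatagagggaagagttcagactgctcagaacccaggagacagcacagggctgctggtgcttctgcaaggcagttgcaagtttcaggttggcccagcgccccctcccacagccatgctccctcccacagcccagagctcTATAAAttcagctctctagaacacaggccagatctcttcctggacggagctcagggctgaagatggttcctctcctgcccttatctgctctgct
Lum (chr7:34245456-34245755, plus strand): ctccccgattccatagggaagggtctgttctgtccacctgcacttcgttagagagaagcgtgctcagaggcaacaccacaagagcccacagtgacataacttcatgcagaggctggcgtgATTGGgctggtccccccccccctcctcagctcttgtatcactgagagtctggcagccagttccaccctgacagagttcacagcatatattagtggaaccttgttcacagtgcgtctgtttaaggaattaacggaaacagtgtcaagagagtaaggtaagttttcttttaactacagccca
Mfap5 (chr4:157399669-157399968, plus strand): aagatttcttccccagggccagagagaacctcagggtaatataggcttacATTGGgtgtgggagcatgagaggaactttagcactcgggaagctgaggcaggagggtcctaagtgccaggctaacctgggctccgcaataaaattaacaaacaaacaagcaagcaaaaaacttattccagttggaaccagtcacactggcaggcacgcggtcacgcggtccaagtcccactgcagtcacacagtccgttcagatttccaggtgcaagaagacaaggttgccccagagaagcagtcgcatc
Fbn1 (chr3:133203341-133203640, minus strand): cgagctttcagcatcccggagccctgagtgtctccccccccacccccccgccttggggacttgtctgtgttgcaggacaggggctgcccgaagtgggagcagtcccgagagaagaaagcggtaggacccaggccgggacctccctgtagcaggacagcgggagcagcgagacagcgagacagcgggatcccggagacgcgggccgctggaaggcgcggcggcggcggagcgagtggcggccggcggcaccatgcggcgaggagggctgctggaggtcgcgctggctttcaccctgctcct

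TATAAA was found in 1 of the 6 windows, Postn, at position -44 from the start, and 14.2% of all 33469 windows held it. CCAAT was found in 2 of the 6, at position -130 from the start in Lum and -200 in Mfap5, against 37.5% of all windows. Of the other letters searched, the E-box CANNTG was found in 5 of the 6 windows (72.1% of all), and the SMAD-binding letters CAGAC in 5 of the 6 (50.1% of all). The GC box letters GGGCGG (33.1% of all), the AP-1 letters TGANTCA (7.33% of all) and the CRE letters TGACGTCA (1.83% of all) were found in 0 of the 6. The Fbn1 window was the richest in G and C of the 6, at 70.7%, and the Sparc window had 61.0%, while the other 4 had 48.0% to 52.0% and all windows had a median of 51.7%. None of these letter strings was in all 6 windows.

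Values are the log2 of the deposited intensity, on which a difference of 1 is a 2-fold change. Differences were tested with limma over all 31042 probe sets and called at an adjusted p under 0.05. Across the whole array the lower quartile was 3.60 to 3.78, the median 5.23 to 5.27 and the upper quartile 7.04 to 7.28 log2. Normal arrays had the highest lower quartiles (3.73 to 3.78), above 4NQO+IL-1Ra arrays (3.60 to 3.70) and 4NQO arrays (3.61 to 3.66). Their upper quartiles were the lowest (7.04 to 7.08), below 4NQO+IL-1Ra arrays (7.16 to 7.26) and 4NQO arrays (7.21 to 7.28). This narrower spread of the normal arrays enters both comparisons with them. Pairs of arrays correlated at r = 0.967 to 0.995 over all probe sets, and no pair was identical. The median SD of a probe set was 0.15 in the 4NQO+IL-1Ra group, 0.19 in the 4NQO group and 0.11 in the normal group. Skeletal muscle markers averaged 10.94 to 11.95 log2 over the 9 arrays, keratinocyte markers 10.86 to 11.94 and fibroblast markers 8.17 to 9.23, as in whole tongue. The labels likewise give tongue tissue as the source of each sample, where the design text names epithelia and fibroblasts. In such samples, fewer cells of a type and less RNA per cell cannot be told apart.

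Before the genes are taken in turn, 2 arrays have to be named. 4NQO array 2 was the lowest of all 9 arrays in 9 of the 9 probe sets. 4NQO array 1 was the highest of its group in 8 of the 9. Averaged over the 7 genes, and set against the normal mean, the 4NQO+IL-1Ra arrays 1 to 3 were at -0.73, -0.66 and -0.37 log2, the 4NQO arrays at -0.57, -1.81 and -1.15, and the normal arrays at -0.05, 0.13 and -0.08. One 4NQO array thus lay within the 4NQO+IL-1Ra range, and the other 4NQO arrays lay below it. For the 7 genes, values without these arrays are given where they decide a call. Both arrays were picked from the values of these same probe sets, so calls gained or lost without them are no independent result.

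**Figure D1:**
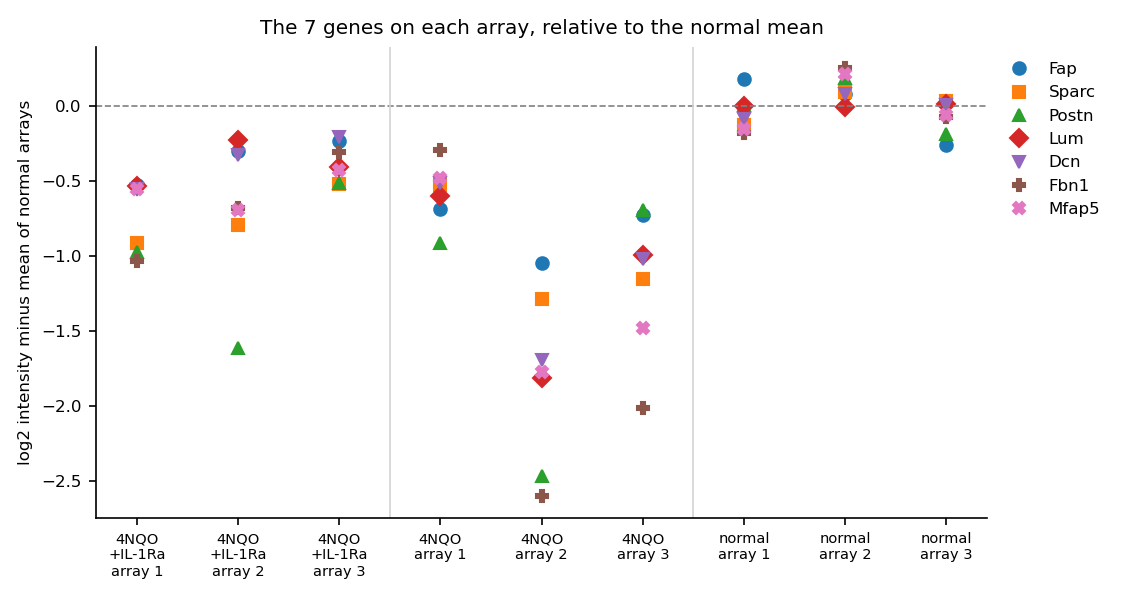
Log2 intensity of each of the 7 genes (1 probe set a gene) on each array, minus the mean of the 3 normal arrays; each marker is a gene and the dashed line is the normal mean. All 7 genes are below the normal mean on every 4NQO+IL-1Ra and 4NQO array, the mean over the genes reaches -1.81 on 4NQO array 2, and it is -0.57 on 4NQO array 1.

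In 4NQO tongues, 6 of the 7 genes were lower than in normal tongues, and 0 were higher. They were the protease gene Fap, the matricellular gene Sparc, both proteoglycan genes and both microfibril genes, by 1.77-fold (Fap) to 3.11-fold (Fbn1). By probe set, 6 of 9 were called lower, against 5.44% of all probe sets called lower and 9.41% called higher. By gene, 5.08% of all 14217 were called lower and 12.4% higher. The 4NQO arrays were all below the normal arrays in 7 of the 9 probe sets, which held 1 for each of the 7 genes, against 17.6% of all probe sets. The median difference of the 7 genes was -1.13 log2, beside 0.08 over all genes. The 7 genes were chosen with earlier results of these data known. Contrasts with the whole array, here and below, are therefore a description and no independent test.

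Fap, the protease, measured 5.61, 5.84 and 5.90 log2 on the 4NQO+IL-1Ra arrays, 5.45, 5.09 and 5.41 on the 4NQO arrays and 6.32, 6.22 and 5.88 on the normal arrays (probe set 1369422_at). The 3 groups were ordered with the 4NQO arrays lowest, and the 4NQO arrays overlapped neither other group. Fap was 0.82 ± 0.15 log2 lower in 4NQO than in normal tongues (SE, n = 3 arrays each; 1.77-fold, limma adjusted p = 0.0111). It was the 1 gene of the 7 whose call in this comparison held with each of the 9 arrays left out in turn, where its adjusted p was 0.0159 to 0.0443.

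Of the 2 probe sets of Sparc, 1367563_at measured 9.74, 9.86 and 10.14 log2 on the 4NQO+IL-1Ra arrays, 10.13, 9.37 and 9.50 on the 4NQO arrays and 10.53, 10.75 and 10.69 on the normal arrays. All 6 arrays from rats on 4NQO, with or without the antagonist, were below all normal arrays. The difference of 4NQO from normal was -0.99 ± 0.19 log2 (SE, n = 3 each; 1.98-fold lower, limma adjusted p = 0.0129). The other probe set, 1367562_at, measured 8.35, 8.55 and 8.78 log2 on the 4NQO+IL-1Ra arrays, 9.22, 8.24 and 8.37 on the 4NQO arrays and 9.12, 9.35 and 9.18 on the normal arrays. There 4NQO array 1 lay among the normal arrays, and the difference of -0.61 log2 was not called (limma adjusted p = 0.102), though without that array it was -0.91 log2 (limma adjusted p = 0.0110). The profiles of the 2 probe sets over the 9 arrays, each centred on its mean, differed by 0.18 log2 (root mean square).

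Postn, the periostin gene, measured 7.80, 7.16 and 8.26 log2 on the 4NQO+IL-1Ra arrays, 7.86, 6.30 and 8.08 on the 4NQO arrays and 8.78, 8.96 and 8.58 on the normal arrays (1373911_at). Arrays of either group on 4NQO were below all normal arrays, with an SD of 0.55 in the 4NQO+IL-1Ra group, 0.97 in the 4NQO group and 0.19 in the normal group. Postn was the 1 gene of the 7 not called between 4NQO and normal tongues, at -1.36 ± 0.42 log2 (SE, n = 3 each; limma adjusted p = 0.0563). Without 4NQO array 3 it was called, at -1.69 log2 (limma adjusted p = 0.0352).

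Of the proteoglycan genes, Lum measured 11.47, 11.78 and 11.60 log2 on the 4NQO+IL-1Ra arrays, 11.40, 10.19 and 11.01 on the 4NQO arrays and 12.00, 12.00 and 12.02 on the normal arrays (1367749_at). The groups did not overlap at all, with the antagonist group in the middle. In 4NQO tongues, Lum was 1.13 ± 0.25 log2 lower than in normal tongues (SE, n = 3 each; 2.20-fold, limma adjusted p = 0.0185). The normal arrays spanned only 0.02 log2.

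Dcn measured 12.04, 12.27 and 12.38 log2 on the 4NQO+IL-1Ra arrays, 12.08, 10.90 and 11.57 on the 4NQO arrays and 12.51, 12.67 and 12.59 on the normal arrays (1370956_at). All arrays of both groups on 4NQO were below the normal arrays, and 4NQO array 1 lay within the antagonist group. The difference of 4NQO from normal was -1.08 ± 0.24 log2 (SE, n = 3 each; 2.11-fold lower, limma adjusted p = 0.0205). Over the 9 arrays the centred profiles of the neighbours Lum and Dcn differed by 0.09 log2 (root mean square), the least of the 21 pairs of the 7 genes, which ranged up to 0.63 log2 for Fap and Fbn1.

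Of the microfibril genes, Fbn1 measured 9.004, 9.36 and 9.73 log2 on the 4NQO+IL-1Ra arrays, 9.74, 7.44 and 8.03 on the 4NQO arrays and 9.86, 10.29 and 9.97 on the normal arrays with probe set 1368829_at. 4NQO array 1 was just under the lowest normal array and 2.30 log2 above 4NQO array 2. The difference of 4NQO from normal was the largest of the 9 probe sets, at -1.64 ± 0.47 log2 (SE, n = 3 each; 3.11-fold lower), and the one nearest the threshold among those called (limma adjusted p = 0.0452). That call was lost with 8 of the 9 arrays left out in turn, and kept without 4NQO array 1 (-2.31 log2, limma adjusted p = 0.00457).

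The other Fbn1 probe set, 1387351_at, measured 8.66, 9.04 and 9.52 log2 on the 4NQO+IL-1Ra arrays, 9.57, 7.37 and 7.67 on the 4NQO arrays and 9.54, 9.91 and 9.59 on the normal arrays. Here 4NQO array 1 lay among the normal arrays. The difference of -1.48 ± 0.48 log2 was not called (SE, n = 3 each; limma adjusted p = 0.0636), and without that array it was -2.16 log2 (limma adjusted p = 0.00500). The centred profiles of the 2 Fbn1 probe sets differed by 0.10 log2 (root mean square).

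Mfap5 measured 9.93, 9.79 and 10.06 log2 on the 4NQO+IL-1Ra arrays, 10.00, 8.71 and 9.003 on the 4NQO arrays and 10.33, 10.70 and 10.42 on the normal arrays (1373674_at). The antagonist group was narrow and below all normal arrays, and 4NQO array 1 lay within it. Mfap5 was 1.25 ± 0.28 log2 lower in 4NQO than in normal tongues (SE, n = 3 each; 2.37-fold, limma adjusted p = 0.0192).

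**Figure D2:**
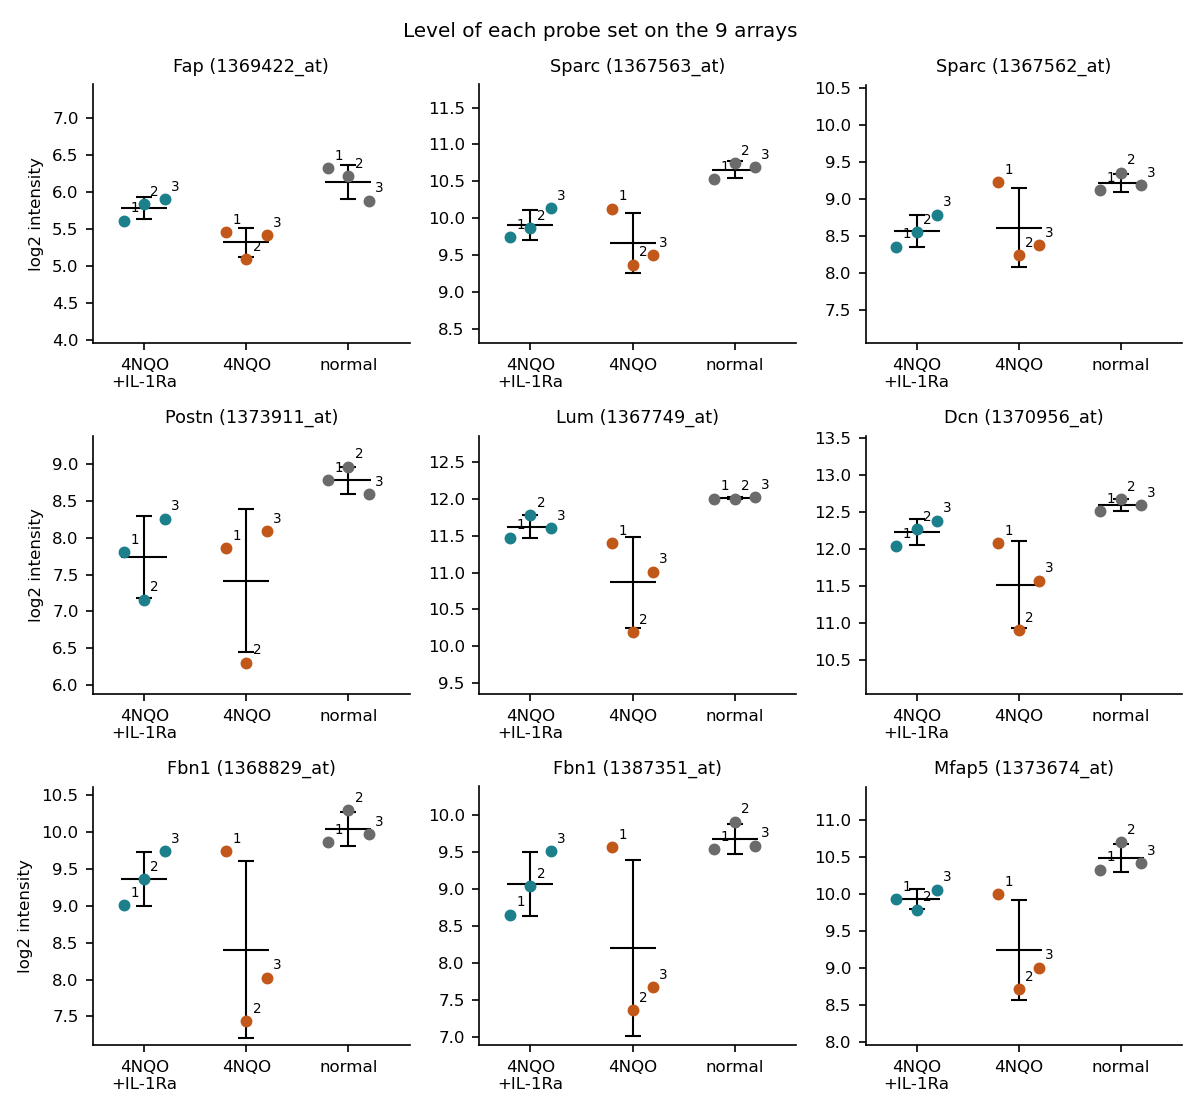
Log2 intensity of each of the 9 probe sets on the 9 arrays; numbers are arrays within a group, the long bar is the group mean and the error bar 1 SD (n = 3), and every panel spans 3.5 log2 units. 4NQO array 2 is the lowest point in every panel, and 4NQO array 1 lies among the normal arrays for Sparc 1367562_at and Fbn1 1387351_at.

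The number of calls between 4NQO and normal tongues turned on the arrays in the fit. It was 8 of 9 probe sets without 4NQO array 1 (4.23% of all probe sets called lower in that fit) and 5 without 4NQO array 2 (4.73% of all). It was 3 without normal array 1 (1.87% of all), 2 without normal array 2 (1.6% of all) and 1, Fap, without normal array 3 (0.818% of all). Lower calls over the whole array thus also became fewer without a normal array. In all of these fits, the 9 differences of 4NQO from normal were below 0.

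Between 4NQO+IL-1Ra and 4NQO tongues, which asks whether blocking IL-1 altered these genes on a background of carcinogen, 0 of the 9 probe sets were called. Over all probe sets, 1.59% were called higher and 0.731% lower, and over all genes 1.91% were called higher and 0.753% lower. All 7 genes were above 0, from 0.25 (Sparc) to 0.96 log2 (Fbn1), with a median of 0.69 beside -0.04 over all genes. An unadjusted limma p under 0.05 was reached by 4 of the 9 probe sets. The largest of the 4, 0.0319 for Mfap5, ranked only 4612 of 31042 probe sets, so such p-values were common over the array. By the methods' t-test (equal variance, p under 0.05 with a fold of 1.5 or 2), or after its adjustment, 0 were called. That test called 2.14% of all probe sets higher at a fold of 1.5 and 1.07% at a fold of 2. This comparison shares the 4NQO arrays with the one above, so low 4NQO arrays enter both.

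The groups were apart in 2 genes, Fap and Lum, against 8.92% of all probe sets in which the antagonist arrays were all higher. Fap was 0.47 ± 0.15 log2 higher (SE, n = 3 each; limma adjusted p = 0.138). Lum was 0.75 ± 0.25 log2 higher (limma adjusted p = 0.144), with the lowest antagonist array 0.07 log2 above the highest 4NQO array. Dcn was at 0.71 ± 0.24 (limma adjusted p = 0.153), Mfap5 at 0.69 ± 0.28 (limma adjusted p = 0.215) and Fbn1 at 0.96 ± 0.47 log2 (1368829_at, limma adjusted p = 0.304). The matricellular genes were nearest to 0, with Postn at 0.32 ± 0.42 (limma adjusted p = 0.727) and Sparc at 0.25 ± 0.19 and -0.05 ± 0.23 log2 (1367563_at and 1367562_at, limma adjusted p = 0.532 and 0.937). The 95% intervals reached from -0.62 to 1.26 log2 for Postn and from -0.09 to 2.02 log2 for Fbn1, so a change of 2-fold was within them.

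4NQO array 1 decided these calls. Without it, 4 of the 9 probe sets were called higher with the antagonist, against 1.38% of all probe sets: Fbn1 at 1.63 and 1.55 log2 (limma adjusted p = 0.0166 and 0.0177), Mfap5 at 1.07 log2 (limma adjusted p = 0.0146) and Dcn at 0.99 log2 (limma adjusted p = 0.0412). Lum was then at 1.01 log2 (limma adjusted p = 0.0514). As 4NQO array 1 was the highest of its group in 8 of these 9 probe sets, leaving it out lowers their 4NQO mean. The contrast with all probe sets in that fit is thus no independent result. Without 4NQO array 2, by contrast, Fbn1 was at 0.48 (1368829_at), Mfap5 at 0.42, Lum at 0.41 and Dcn at 0.40 log2, and Postn was at -0.23 log2, with 0 called.

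Set against normal tongues, the 9 differences of 4NQO+IL-1Ra tongues were all below 0, and 0 were called, beside 0.541% of all probe sets called lower. The arrays did not overlap in 8 of the 9 probe sets, all but Fap, against 15.9% of all probe sets with the antagonist arrays lower. An unadjusted limma p under 0.05 was reached by 4 of the 9. The largest of the 4, 0.0413 for Fap, ranked only 6376 of 31042 probe sets, so such p-values were common here too. The methods' t-test called 3 at a fold of 1.5 (1.3% of all probe sets lower), 1 at a fold of 2 (0.245% of all) and 0 after adjustment. The difference nearest the threshold was that of Sparc, at -0.74 ± 0.19 log2 (1367563_at; SE, n = 3 each, limma adjusted p = 0.0700), with -0.66 ± 0.23 log2 in its other probe set (limma adjusted p = 0.137). Postn was at -1.03 ± 0.42 log2 (limma adjusted p = 0.184). Lum, Dcn and Fap were the closest to normal, at -0.39 ± 0.25, -0.36 ± 0.24 and -0.36 ± 0.15 log2 (limma adjusted p = 0.378, 0.403 and 0.201). With only the 6 arrays compared in the fit, Sparc (both probe sets), Postn and Mfap5 were called lower (4 of 9, limma adjusted p = 0.0198 to 0.0457), and 2.77% of all probe sets were.

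**Figure D3:**
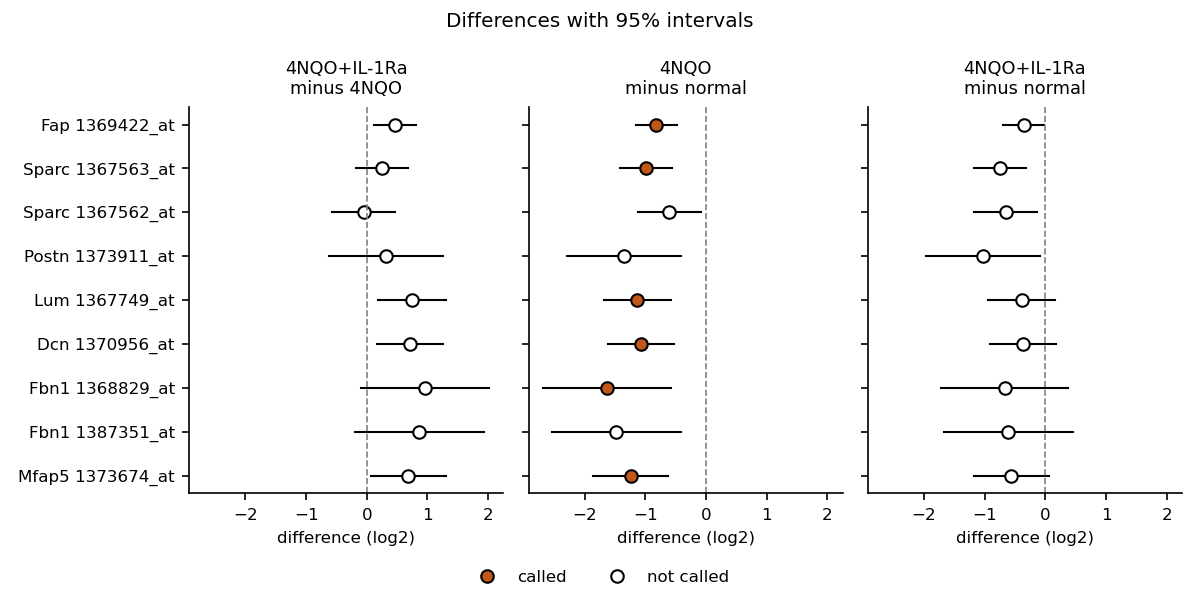
Difference in log2 intensity of each probe set in the 3 comparisons, with its 95% interval from limma; filled points are called at an adjusted p under 0.05 and the dashed line marks no difference. All 9 points are below 0 in 4NQO minus normal, with 6 called, and 8 of 9 are above 0 in 4NQO+IL-1Ra minus 4NQO, with 0 called.

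Beside the 7 genes, 87 measured genes of 5 related families were counted, 1 probe set each. Between 4NQO and normal tongues, 17 were called lower, 2 higher and 68 were not called, with a median of -0.33 log2. Over all genes, 5.08% were called lower and 12.4% higher, with a median of 0.08 log2. The lists, like the 7 genes, were chosen with earlier results of these data known. The counts moved with the arrays: 30 were lower without 4NQO array 1, 9 without 4NQO array 2, and 4, 1 and 1 without normal arrays 1, 2 and 3. Under quantile and cyclic loess scaling 17 were lower in each, but not the same 17. Col3a1 (limma adjusted p = 0.0699 and 0.0632) and Podnl1 (limma adjusted p = 0.19 and 0.18) lost their calls under both, and other genes gained one. The higher call of Prep was also lost under both (limma adjusted p = 0.154 and 0.243). Of the 19 calls in the main fit, that of Aspn was kept with every array left out in turn and that of Podnl1 with none. Those of the other 17 were kept with 1 to 7 of the 9 arrays left out.

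Of the other small leucine-rich proteoglycan genes, 4 of 11 were lower in 4NQO than in normal tongues and 0 higher (median -0.40 log2). Aspn, the asporin gene, averaged 7.19 ± 0.24 in 4NQO and 9.01 ± 0.08 log2 in normal tongues (SD, n = 3 each; limma adjusted p = 0.00310). Omd, the osteomodulin gene, averaged 5.38 ± 0.73 in 4NQO and 6.77 ± 0.47 log2 in normal tongues (limma adjusted p = 0.0282). Ecm2 was 1.31 log2 lower (limma adjusted p = 0.0375), and Podnl1 was 0.38 log2 lower near the lower quartile of the array, at 3.52 in 4NQO and 3.90 log2 in normal tongues (limma adjusted p = 0.0499). Ogn, the osteoglycin gene, was at -0.93 log2 and not called with the probe set taken for the gene (limma adjusted p = 0.0601), but 3 of its 4 probe sets were called, with differences down to -2.07 log2. Aspn was also lower in 4NQO+IL-1Ra than in normal tongues, the 1 proteoglycan gene of the 11 called there (a call lost with 5 of 9 arrays left out), and 0 were called between 4NQO+IL-1Ra and 4NQO tongues (median 0.43 log2), with Aspn at 0.50 and Optc, the opticin gene, at 0.52 log2 (limma adjusted p = 0.0979 and 0.101).

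Of the other microfibril and elastic fibre genes, 4 of 23 were lower in 4NQO than in normal tongues and 0 higher (median -0.35 log2). Mfap4, a microfibril-associated glycoprotein gene, averaged 7.97 ± 1.10 in 4NQO and 9.49 ± 0.09 log2 in normal tongues (SD, n = 3 each; limma adjusted p = 0.0380). Eln, the elastin gene, was 1.02 log2 lower (limma adjusted p = 0.0221), in 1 of its 2 probe sets. Lox, which encodes the enzyme that crosslinks collagen and elastin, was 1.31 log2 lower (limma adjusted p = 0.0476), also in 1 of 2. Ltbp4, a latent TGF-beta binding protein gene, was 0.71 log2 lower (limma adjusted p = 0.0358). Mfap2, the gene most closely related to Mfap5 by name and role, was at -0.97 log2 and not called (limma adjusted p = 0.0746). Of the 23, 0 were called between 4NQO+IL-1Ra and 4NQO tongues (median 0.25 log2), with Mfap4 at 1.23 and Lox at 1.08 log2 (limma adjusted p = 0.151 and 0.169).

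Of the SPARC family and other matricellular genes, 3 of 20 were lower in 4NQO than in normal tongues and 0 higher (median -0.20 log2). Fstl1, a follistatin-like member of the SPARC family, averaged 8.72 ± 0.69 in 4NQO and 9.95 ± 0.22 log2 in normal tongues (SD, n = 3 each; 1371331_at, limma adjusted p = 0.0229), and 2 of its 3 probe sets were called. Thbs4, a thrombospondin gene, was 1.28 log2 lower (limma adjusted p = 0.0422) and Ccn3 1.14 log2 lower (limma adjusted p = 0.0422). The other CCN genes named by the rule had values on the other side of 0, with Ccn2 at 0.54 and Ccn1 at 0.80 log2, neither called (limma adjusted p = 0.0638 and 0.235). With the antagonist, 0 of 20 were called against 4NQO tongues (median -0.01 log2), with Ccn3 at 1.21, Smoc2 at -0.51, Ccn2 at -0.37 and Ccn1 at -1.09 log2 (limma adjusted p = 0.0837, 0.205, 0.279 and 0.222).

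Of the other fibroblast surface and matrix protease genes, 1 of 21 was lower and 2 were higher in 4NQO than in normal tongues (median -0.07 log2). Neither count was far from the share over all genes, 5.08% lower and 12.4% higher. Ctsk, which encodes the collagen-degrading protease cathepsin K, averaged 6.29 ± 0.55 in 4NQO and 7.52 ± 0.10 log2 in normal tongues (SD, n = 3 each; limma adjusted p = 0.0165). Plaur, the urokinase receptor gene, was 0.55 log2 higher (limma adjusted p = 0.0199) in 1 of its 2 probe sets, with the other at -0.04 log2, and Prep, a cytosolic relative of Fap that also cleaves after proline, was 0.46 log2 higher (limma adjusted p = 0.0434). Both higher calls were small in size, and Plaur was below the median of the array, at 4.92 in 4NQO and 4.37 log2 in normal tongues. Mmp2, a gelatinase gene, and Pcolce, which encodes an enhancer of procollagen processing, were at -0.58 and -0.76 log2 and not called (limma adjusted p = 0.160 and 0.0848), although the other of the 2 Mmp2 probe sets, at -0.37 log2, was called lower. Timp2, a metalloproteinase inhibitor gene, was the 1 of the 87 genes called between 4NQO+IL-1Ra and 4NQO tongues. Over all genes, 1.91% were called higher there, so 1 of 87 was not above that share. Timp2 averaged 10.50 ± 0.11 in 4NQO+IL-1Ra and 9.28 ± 0.63 log2 in 4NQO tongues (SD, n = 3 each; limma adjusted p = 0.0386), against 10.09 ± 0.10 log2 in normal tongues. The call was lost with 7 of the 9 arrays left out in turn, among them 4NQO array 2 (0.94 log2, limma adjusted p = 0.0710), and the other Timp2 probe set was at 0.34 log2 and not called.

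Of the fibrillar and type VI collagen genes, 5 of 12 were lower in 4NQO than in normal tongues and 0 higher (median -1.004 log2). Col3a1 averaged 10.48 ± 1.42 in 4NQO and 12.29 ± 0.12 log2 in normal tongues (SD, n = 3 each; limma adjusted p = 0.0469). Col1a2 was 1.61 log2 lower in 4NQO tongues (limma adjusted p = 0.0243), with both of its probe sets called. Col1a1, named after its value was seen, was 1.44 log2 lower (limma adjusted p = 0.0480), Col5a3 1.18 log2 lower (limma adjusted p = 0.0199) and Col6a3 1.13 log2 lower (limma adjusted p = 0.0360, 1 of 2 probe sets). Col6a1 and Col6a2 were at -0.70 and -0.47 log2 and not called. In 4NQO+IL-1Ra against 4NQO tongues the median of the 12 was 0.73 log2, with 0 called. Without 4NQO array 1, 11 of all 87 genes, 3 of them collagens, were called higher with the antagonist, against 1.38% of all probe sets. It was 0 without 4NQO array 2 (1.03% of all) and 2 without 4NQO array 3 (3.78% of all). The collagens averaged 8.34 log2 on 4NQO array 1, against 6.94 and 7.75 on 4NQO arrays 2 and 3. Leaving that array out thus lowers their 4NQO mean, so the calls gained are no independent result.

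**Figure D4:**
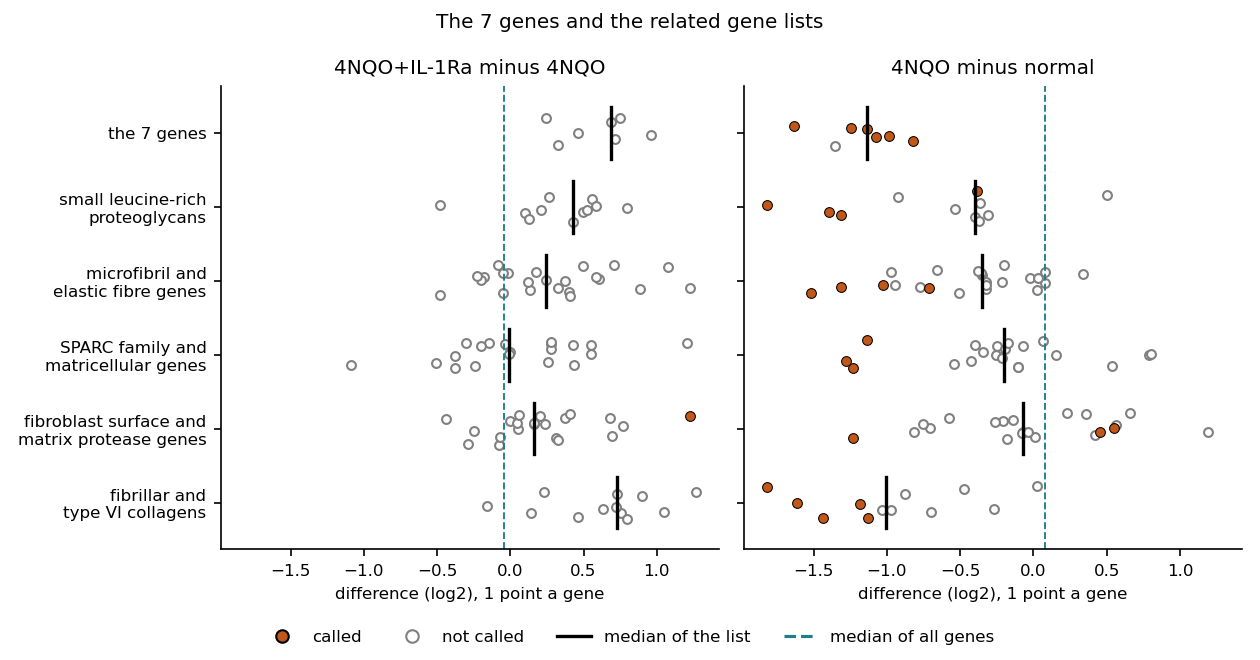
Differences of the 7 genes and of each related list (1 point a gene, filled where called at an adjusted p under 0.05) in 4NQO+IL-1Ra minus 4NQO and in 4NQO minus normal; the solid bar is the median of the list and the dashed line the median of all genes. The 7 genes have a median of -1.13 and the collagens of -1.004 log2 in 4NQO minus normal, and Timp2 is the only filled point on the left.

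The genes whose centred profiles over the 9 arrays were closest to each of the 7 were sought among 12533 candidates, as a description with no test. Mfap5 had the closest match, to Fstl1 (probe set 1371331_at), with a root mean square difference of 0.08 log2, followed by Dpt, the dermatopontin gene. Lum was closest to Col6a3 (0.12 log2) and Dcn to Ctsk (0.12 log2), and the 3 closest genes of Lum and of Dcn were the same 3: Col6a3, Ctsk and Colec12, a collectin gene. Fbn1 was closest to Col1a1 (0.17 log2), Col1a2 and Fn1, the fibronectin gene. Sparc was closest to another probe set of Fstl1 (1368822_at, 0.13 log2), to Cd48, a leukocyte surface protein gene, and to Eln. Postn, with the least close match, was nearest to Thbs4 (0.26 log2), Col5a2 and Ndn. Fap was nearest to Fkbp7 (0.14 log2), an endoplasmic reticulum prolyl isomerase gene, Dact1 and Rgs2, so that none of its 3 was a matrix protein gene.

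Markers of the cell types in the tongue moved with these genes on some arrays. Over all genes, 5.08% were called lower and 12.4% higher in 4NQO than in normal tongues. Of the 9 measured fibroblast markers, 1 (Dpt) was lower in 4NQO than in normal tongues and 0 were higher, with a median of -0.07 log2. Clec3b was at -1.27, Dpt at -1.002 and Pi16 at -0.59 log2 (limma adjusted p = 0.150, 0.0188 and 0.338). The other 6, among them Pdgfra, Thy1 and Vim of fibroblasts and other mesenchymal cells, were between -0.18 and 0.08 log2. The mean of the fibroblast markers was 8.76, 8.68 and 9.23 log2 on the 4NQO+IL-1Ra arrays, 9.23, 8.17 and 8.55 on the 4NQO arrays and 8.92, 9.20 and 8.84 on the normal arrays. It was thus lowest on the 4NQO array where the 7 genes were lowest. On 4NQO array 1 and 4NQO+IL-1Ra array 3 it was about level with the highest normal array (9.23 and 9.23 against 9.20 log2). The 7 genes were below the normal mean on both, at -0.57 and -0.37 log2.

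Macrophage markers averaged 6.75, 6.51 and 7.05 log2 on the 4NQO+IL-1Ra arrays, 6.97, 5.46 and 5.98 on the 4NQO arrays and 6.49, 6.78 and 6.24 on the normal arrays. They were low on the same 2 4NQO arrays as the 7 genes, with 0 of 7 called between 4NQO and normal tongues. Endothelial markers went the other way, 4 of 7 being higher in 4NQO than in normal tongues (Pecam1, Kdr, Flt1 and Vwf, by 0.76 to 1.06 log2), with a mean of 7.27 to 7.60 on 4NQO+IL-1Ra, 7.64 to 7.96 on 4NQO and 7.13 to 7.38 log2 on normal arrays. Of the pericyte markers, 2 of 4 were lower (Rgs5 and Notch3), and of the T and B cell markers 3 of 7 (Cd4, Cd79b and Ms4a1, by 0.43 to 0.50 log2), at mean levels of 3.37 to 3.71 log2 in 4NQO and 3.87 to 4.17 log2 in normal tongues, near the lower quartile. Of the 9 keratinocyte markers, 1 was higher (Tp63, by 1.40 log2, limma adjusted p = 0.0226), beside 12.4% of all genes called higher. Smooth muscle markers had 0 of 7 called and a median of 0.45 log2. Of the 10 skeletal muscle markers, 0 were called between 4NQO and normal tongues. Chondrocyte markers were near the lower quartile of the array, at 3.33 to 3.83 log2, although 2 of 4 were called lower (Acan and Matn1). Of the adipocyte and Schwann cell markers, 0 of 5 and 0 of 3 were called. In 4NQO+IL-1Ra against 4NQO tongues, 2 of the 10 skeletal muscle markers were lower (Ttn by 0.72 and Tnnt1 by 1.82 log2, limma adjusted p = 0.0494 and 0.0487), and 0 were called in the other lists. Over all genes, 0.753% were called lower there and 1.91% higher. The mean of the skeletal muscle markers was 10.94 to 11.37 on 4NQO+IL-1Ra, 11.51 to 11.95 on 4NQO and 11.40 to 11.75 log2 on normal arrays. It was the highest of all arrays on 4NQO array 2 (11.95 log2), where the 7 genes were lowest. The smooth muscle markers averaged 8.74, 8.66 and 7.71 log2 on 4NQO arrays 1 to 3 and 7.70 to 8.24 log2 on normal arrays. The median difference of the macrophage markers between 4NQO+IL-1Ra and 4NQO was 0.61, that of the fibroblast markers 0.24 and that of the endothelial markers -0.41 log2. The values are on a log scale with no true 0, so no marker was at 0. The part of cell composition in the differences of the 7 genes was not tested.

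**Figure D5:**
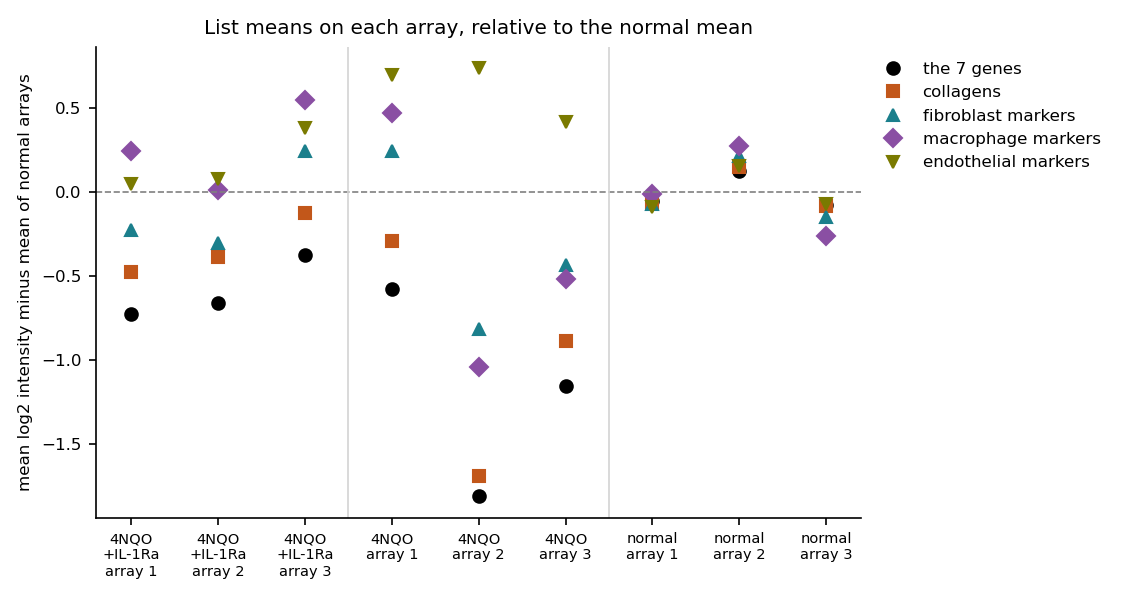
Mean log2 intensity of the 7 genes, the collagens and 3 sets of cell type markers on each array, minus the mean of the 3 normal arrays. The 7 genes, the collagens, the fibroblast markers and the macrophage markers are all lowest on 4NQO array 2, where the endothelial markers are above the normal mean.

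RNA quality also differed between groups. The 3′ minus 5′ difference of the beta-actin control probe sets, which grows as RNA shortens, was 0.98 to 1.27 log2 in the 4NQO+IL-1Ra group, 1.07 to 1.29 in the 4NQO group and 0.74 to 0.86 in the normal group. The GAPDH controls gave 0.26 to 0.28 in the 4NQO+IL-1Ra group, 0.31 to 0.43 in the 4NQO group and 0.23 to 0.30 log2 in the normal group. The hexokinase controls gave 1.80 to 2.20 in the 4NQO+IL-1Ra group, above all other arrays, 1.29 to 1.78 in the 4NQO group and 1.47 to 1.53 log2 in the normal group. On 4NQO array 2, where the 7 genes were lowest, the beta-actin and hexokinase differences were the lowest of their group (1.07 and 1.29 log2) and the GAPDH difference the middle one (0.31 log2), and the part of RNA quality in the results was not tested.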

How the data were processed

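Total RNA of 9 rat tongue samples was hybridised to Affymetrix rat expression arrays. Expression Console (Affymetrix) and RMA are named in the submitters' processing notes, with no version. RMA subtracts background, scales arrays to one distribution and summarises probes, so a shift of most genes would not show. The deposited probe set values were nevertheless not on one distribution, as the quartiles of the normal arrays lay apart from those of all other arrays. The authors deposited a linear intensity for every probe set on every array, and the log2 of the deposited intensity was taken here. Of 31099 probe sets, 57 controls were left out and 31042 tested. Platform annotation gave 20826 of these 1 gene symbol, 436 several and 9780 none, and the last 2 kinds were not named. For a gene with several probe sets, the one with the highest mean stands for it.

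Groups came from the labels. A fit of 3 group means with empirical Bayes moderation (limma 3.58.1, R 4.3.3; 6 residual and 4.01 prior degrees of freedom) gave 3 two-sided comparisons, adjusted by Benjamini-Hochberg over all probe sets and called at an adjusted p under 0.05. The script was tested on simulated data. Precision is limited by 3 arrays per group. The paper's general statistics section names the t-test and analysis of variance with p under 0.05, and its array section a fold of 2 or 1.5 with a detection P under 0.05. The methods' t-test (equal variance, p under 0.05 with a fold of 1.5 or 2, or adjusted) was therefore an alternative to limma. Further alternatives were quantile and cyclic loess scaling, leaving out the 40% dimmest probe sets, an offset of 16, a trended or robust variance, array weights, only the 6 arrays compared, the mean of a gene's probe sets, and each array left out. The scalings and omissions for the related families were chosen after seeing the data. The members and lists were chosen with earlier results of these data known. Named were all 7 genes, the 4 genes of each family with the lowest adjusted p in 4NQO against normal and in 4NQO+IL-1Ra against 4NQO, and the 3 genes nearest in profile to each of the 7, among single-symbol genes at or above the median level. Single cell type markers were named after their values were seen. Cell type markers, positions and promoters (RefSeq, GRCr8) were read from fixed lists and tables. Tables were made with Python 3.11.15, numpy 2.4.6, pandas 2.3.3 and matplotlib 3.10.9.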

Additional observations from a re-analysis of the deposited data

How the results depend on the processing

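Between 4NQO and normal tongues, 6 of 9 probe sets were called, against 3 by the methods' t-test with a fold of 2, 0 by the methods' t-test after adjustment, and 1 to 8 with an array left out. Of all probe sets, 5.44% were called lower in the main fit. The share was 0.783% by that test with a fold of 2, 0% after its adjustment and 0.818% to 5.41% with an array left out. Between 4NQO+IL-1Ra and 4NQO tongues, 0 were called, and 0 to 4 with an array left out. Of all probe sets, 1.59% were called higher there, and 0.528% to 3.78% with an array left out. In 4NQO+IL-1Ra against normal tongues 0 were called, with 3 under array weights, 4 with only the 6 arrays compared, 3 and 1 by the methods' t-test with a fold of 1.5 and 2, and 0 to 2 with an array left out. Lower calls over all probe sets were 0.541% in the main fit, 4.17% under array weights and 2.77% with only the 6 arrays compared. By the methods' t-test they were 1.3% and 0.245%, and with an array left out 0% to 1.88%. Of 492 values of single probe sets, 440 kept direction and side of the threshold, 28 lost their call, 20 gained one and 4 changed sign. The sign changes were in 4NQO+IL-1Ra against 4NQO: Sparc 1367562_at was -0.05 log2, but 0.037 under cyclic loess and -0.23 to 0.26 with an array left out, and Postn was 0.32, but -0.23 to 0.66 with an array left out. The Fbn1 call (1368829_at) between 4NQO and normal tongues was also lost under 6 of 10 other settings, and Postn was called under quantile scaling (adjusted p = 0.0489), the dim filter (0.0500) and array weights (0.0372). The cause was not tested.

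Of the 87 related genes, 17 were called lower and 2 higher in 4NQO against normal. In 4NQO+IL-1Ra against 4NQO 1 was called higher, and in 4NQO+IL-1Ra against normal 1 lower and 1 higher. Over all probe sets, 5.44% were called lower and 9.41% higher in the first of these comparisons. These shares were 0.731% and 1.59% in the second and 0.541% and 1.33% in the third. With an array left out, the genes called in either direction were 1 to 31, 0 to 11 and 0 to 4 in the 3 comparisons. Quantile or cyclic loess scaling gave 1 in the third. Lower calls over all probe sets with an array left out were 0.818% to 5.41%, 0.0644% to 3.8% and 0% to 1.88%. Higher calls were 1.92% to 9.33%, 0.528% to 3.78% and 0% to 4.83%.

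Over all probe sets, 4610 were called between 4NQO and normal, with 1 by the adjusted methods' t-test, 452 by that test with a fold of 2, and 851 to 5463 under the other settings. Of those called there, 63.4% were higher, against 51.9% under quantile and 47.7% under cyclic loess scaling. In 4NQO+IL-1Ra against 4NQO the share was 68.6%, and 79.9% under cyclic loess. In 4NQO+IL-1Ra against normal it was 71.1%, and 46.3% and 35.1% under quantile and cyclic loess scaling. No paired analysis was possible because the labels give no replicate number shared between groups. With 3 arrays a group, most 95% intervals of the differences not called reached past a 1.5-fold change.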
